A study of Mus musculus with 12 samples.

Results

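Star strands are the names that end in an asterisk (miR-140*, let-7d*) in the mouse miRNA nomenclature of the time, and they were taken here as all such names in the 12 count files of adult mouse frontal cortex (FCx) and hippocampus (HP), a joined name counting when every part ended in the asterisk. There were 95 of them among 469 miRNA names. Of these, 80 had a row with the same name without the asterisk, 13 were locus-numbered or joined names that were set against a shared row of the other arm, and 2 (miR-214* and miR-881*) had no row of the other arm. The name miR-297a*/miR-297b-3p/miR-297c*, starred only in part, was left out.

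Both regions came from untreated male C57BL/6J mice of 8 weeks, and each region was represented by 1 pool of total RNA from 3 mice. Each pool was made into 3 small RNA libraries that differed in the index, a short tag on the 5′ adaptor that lay next to the first base of the RNA (indexes 3, 7 and 11). Every library was sequenced in a lane of its own and again in a lane pooled with the other two, and the runs of a library were summed, which left 3 libraries for FCx and 3 for HP. Because libraries of the same region were made from the same RNA, every spread and p-value below measures library making and sequencing, not mice, and the regions differ by 1 pool each. The FCx libraries held 391410, 1461732 and 652449 miRNA counts with indexes 3, 7 and 11, and the HP libraries 3206221, 4956117 and 4053518.

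A miRNA is cut from a hairpin as a duplex of a 5p and a 3p arm. Usually the strand whose 5′ end is less tightly paired is loaded into an Argonaute protein and the other strand is degraded. The asterisk was given to the arm that had been cloned less often when the name was made, so it says nothing by itself about the brain. Since bases 2 to 8, the seed, direct a miRNA to its targets, the choice of arm decides which mRNAs a hairpin can address.

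By the arm given for each name, 63 stars were 3p and 32 were 5p arms. The sequences of the pairs in which the star was the more abundant arm are shown first, with the seed in capitals, because the arms of a pair differ in it. Capitals mark bases 2 to 8 from the annotated first base, which was not the commonest start of every arm. Mature sequences are RefSeq's, in the current arm names, and positions were read in NCBIM37 (the mouse build of the alignments) by exact match.
miR-140* (miR-140-3p): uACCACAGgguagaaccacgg
miR-136* (miR-136-3p): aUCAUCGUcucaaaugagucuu
miR-136 (miR-136-5p): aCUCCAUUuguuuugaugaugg
miR-322* (miR-322-3p): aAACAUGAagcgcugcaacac
miR-322 (miR-322-5p): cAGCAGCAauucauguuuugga
miR-330* (miR-330-3p): gCAAAGCAcagggccugcagaga
miR-330 (miR-330-5p): uCUCUGGGccugugucuuaggc
miR-193* (miR-193a-5p): uGGGUCUUugcgggcaagauga
miR-193 (miR-193a-3p): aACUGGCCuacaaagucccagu

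The miR-140* arm lies at chr8:110075188-110075208 (plus strand), in an intron of the ubiquitin ligase gene Wwp2. The miR-136* arm is at chr12:110833576-110833597 (plus strand), opposite an exon of the retrotransposon-derived gene Rtl1 in the imprinted miRNA cluster. miR-330* is at chr7:19766874-19766896 (plus strand), over an exon of Eml2, a microtubule-associated protein gene. miR-322* (chrX:50407446-50407466, minus strand) and miR-193* (chr11:79525477-79525498, plus strand) lie between annotated genes.

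The next set holds pairs whose arm ratio changed most with the index, and the stars that differed most between the regions. Within it, miR-200a* and miR-200b* carry the same seed, as do let-7b* and let-7a*/let-7c-2*, while let-7d* differs from the latter within the seed.
miR-674* (miR-674-3p): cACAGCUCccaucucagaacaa
miR-674 (miR-674-5p): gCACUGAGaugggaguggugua
miR-872* (miR-872-3p): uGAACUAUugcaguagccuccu
miR-872 (miR-872-5p): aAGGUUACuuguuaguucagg
miR-28* (miR-28a-3p): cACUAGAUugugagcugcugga
miR-28 (miR-28a-5p): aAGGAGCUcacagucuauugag
let-7d* (let-7d-3p): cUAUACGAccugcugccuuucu
let-7d (let-7d-5p): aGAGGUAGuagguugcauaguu
let-7b* (let-7b-3p): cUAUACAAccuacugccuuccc
let-7b (let-7b-5p): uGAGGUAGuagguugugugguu
let-7a*/let-7c-2* (let-7a-1-3p): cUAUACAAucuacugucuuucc
miR-200b* (miR-200b-5p): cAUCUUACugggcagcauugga
miR-200a* (miR-200a-5p): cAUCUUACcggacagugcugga
miR-382* (miR-382-3p): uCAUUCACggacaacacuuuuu

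In 81 pairs with a sequence for each arm, the stars began with C in 32, A in 22, U in 15 and G in 12, whereas the other arms (counted once for each pair) began with U in 48, A in 19, C in 8 and G in 6. U is the base that the 5′ pocket of Argonaute is known to prefer. Median length was 22 nt on either side, and median GC content was 50% for stars and 43.5% for the other arms. These are properties of the names, which were given with cloning frequency in view.

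Star strands were a small part of the miRNA counts. Their share of all miRNA counts in FCx was 1.11% (95% Wilson interval 1.07 to 1.14), 0.486% (0.474 to 0.497) and 0.650% (0.631 to 0.670) with indexes 3, 7 and 11, a mean of 0.747% ± 0.322 (SD, n = 3). In HP it was 0.862% (0.852 to 0.873), 0.803% (0.796 to 0.811) and 0.452% (0.445 to 0.458), a mean of 0.706% ± 0.222 (SD, n = 3). The libraries of the regions overlapped, and the spread between indexes was larger than the difference between the means. Intervals here cover counting error alone, since the reads carried no molecular identifiers. At 2 or more counts, 74 stars of 370 detected names were found in FCx and 91 of 427 in HP, where the libraries were deeper. With HP counts scaled to the FCx total, 66 stars reached this level in HP.

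A few stars carried most of these counts. The 10 with the highest mean level over both regions held 77.6% of star counts in FCx and 81.5% in HP. miR-140* led with 1398, 1976 and 782 CPM (counts scaled to the miRNA total of the library, in parts per 1e+06) in FCx and 1045, 2486 and 761 CPM in HP. miR-9*, from the neural miR-9 hairpins whose 3p arm is itself known as a repressor of CoREST in neurons, followed with a mean of 1304 CPM ± 1069 (SD, n = 3) in FCx and 922 ± 1007 in HP. miR-30a* stood at 1010 ± 720 in FCx and 898 ± 152 in HP. miR-382*, miR-30e*, miR-330*, miR-136*, miR-127*, let-7b* and miR-485* completed the list of 10, and the counts of let-7b* are suspect, as described with the lanes. In HP, miR-411* (2076 counts, named after its values were seen) ranked above let-7b* (1079 counts). Its members came from known neural hairpins (miR-9), from the imprinted cluster on chromosome 12 (miR-127, miR-136, miR-382, miR-485) and from broadly expressed hairpins.

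The first question was in which hairpins the arm named as the star was the more abundant one. Pairs with at least 10 counts in every library of a region were judged. The star was higher in all 3 libraries in 4 of 60 pairs in FCx (miR-136*, miR-140*, miR-322* and miR-330*) and in 5 of 69 pairs in HP (the same 4 and miR-193*). It was higher in none of the 3 libraries in 48 and 51 pairs, and the libraries disagreed in 8 and 13. Of 59 pairs judged in both regions, 4 had the star higher in all 6 libraries, 46 in none and 9 in some. In the same data 42 hairpins had rows named -5p and -3p without an asterisk. Their rarer arm had a median share of 11.7% in FCx and 21.3% in HP (25 and 34 pairs judged), against 2.70% and 4.28% for the rarer arm of the star pairs.

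miR-140*, whose hairpin is best known from cartilage, was the extreme case. It had 547, 2888 and 510 counts in FCx against 2, 2 and 1 of miR-140, and 3352, 12319 and 3083 in HP against 12, 13 and 8. The star share was thus 99.6% or more in every library. miR-136* had 143, 534 and 84 counts against 8, 36 and 4 in FCx, and 1254, 3167 and 633 against 27, 131 and 42 in HP. Its share lay between 93.7% and 97.9%, and the lowest lower bound of the Wilson intervals was 88.9%.

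miR-322*, from the X-linked miR-322/miR-503 cluster related to miR-15 and miR-16, had 26, 52 and 22 counts in FCx against 1, 3 and 2, and 186, 177 and 146 in HP against 8, 11 and 6. Its share was between 91.7% and 96.3% in the 6 libraries. miR-330* was the more balanced pair. It took 64.9%, 62.0% and 61.4% of the pair in FCx and 63.2%, 69.6% and 70.1% in HP, and the lowest lower bound of its Wilson intervals was 51.6% (FCx, index 11, 62 against 39 counts). The arm ratio of miR-330 ranged over 0.22 (FCx) and 0.45 (HP) log2 units between the indexes.

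miR-193* was higher in HP alone, with 78, 108 and 17 counts against 67, 9 and 1 of miR-193. In FCx the pair was too rare to be judged (6, 0 and 5 counts against 6, 3 and 1). The share with index 3 in HP, 53.8%, had an interval from 45.7% to 61.7%, which included equality. miR-145* was judged in HP alone, where the libraries disagreed, with 40, 509 and 24 counts against 14, 25 and 37. miR-325* was below the minimum in both regions and had 51, 4 and 63 counts against 2, 3 and 8 in HP. These pairs are named after their values were seen.

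**Figure D1:**
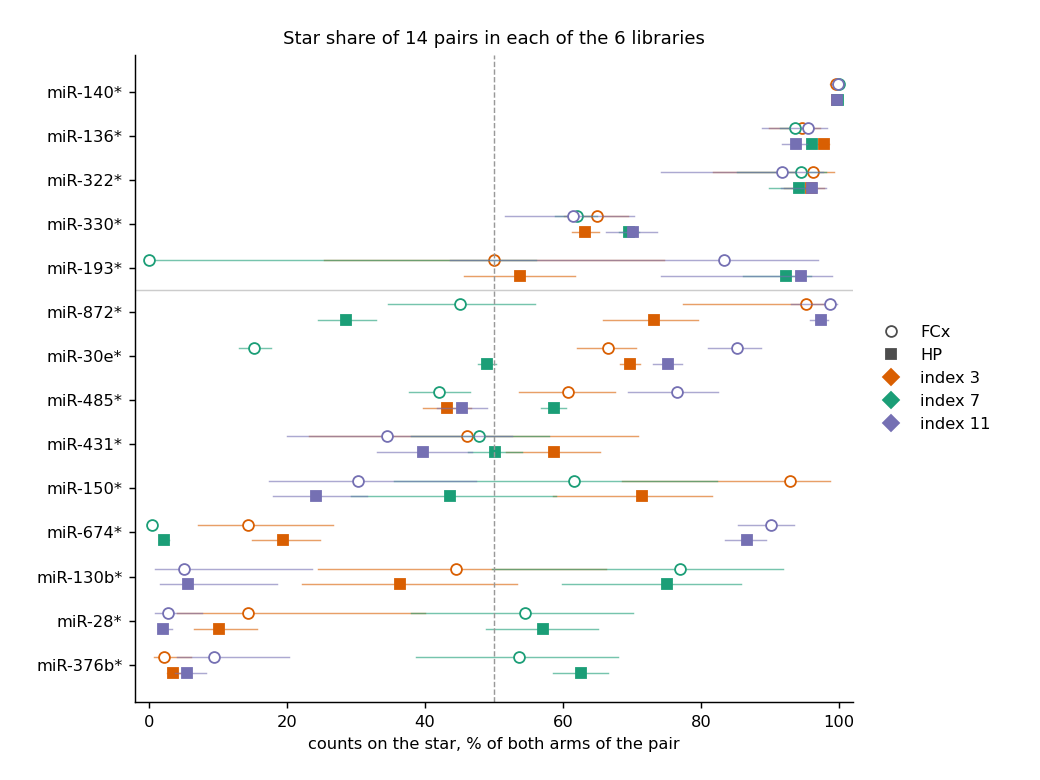
Counts on the star as a percentage of both arms of the pair (x axis) for 14 pairs (y axis), with 95% Wilson intervals as lines; open circles are FCx, filled squares HP, and colours the 3 indexes. The 5 pairs above the grey line had the star higher in all 3 libraries of HP, and 4 of them in FCx as well, while in the 9 pairs below it the points cross 50% and tend to group by colour.

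The 9 pairs in which the libraries disagreed were miR-28*, miR-30e*, miR-130b*, miR-150*, miR-376b*, miR-431*, miR-485*, miR-674* and miR-872*. In most of them the higher arm changed with the index. miR-674* had 7 against 42 counts with index 3, 6 against 1390 with index 7 and 192 against 21 with index 11 in FCx. In HP the same libraries gave 48 against 199 with index 3, 43 against 1973 with index 7 and a star share of 86.7% with index 11. The star was therefore 0.430% of the pair with index 7 and 90.1% with index 11 from the same FCx RNA, while in HP it was 2.13% with index 7.

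miR-872* behaved alike, at 95.2%, 45% and 98.7% in FCx and 73.2%, 28.5% and 97.4% in HP. miR-28*, miR-130b* and miR-376b* were highest with index 7. miR-28* had shares of 14.3%, 54.5% and 2.73% in FCx and 10.2%, 57.1% and 2.09% in HP. For miR-376b*, a member of the imprinted cluster, the shares were 2.13%, 53.7% and 9.43% in FCx and 3.49%, 62.6% and 5.56% in HP. miR-218-2*, set against the row that both miR-218 hairpins share, stayed the rarer arm but moved from none of 1700 counts (index 11) to 2.39% (index 7) in FCx and from 0.0302% to 2.83% in HP.

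To see how general this was, 35 same-name pairs with at least 10 counts of each arm in each region were compared. The log2 ratio of star to other arm, each with 0.5 counts added, ranged over a median of 2.97 between the 3 indexes in FCx and 2.27 in HP. The difference between regions within an index, averaged with its sign over the indexes, had a median size of 0.57. These are unlike measures, since a range over 3 indexes exceeds an averaged difference even where the index has no effect. In 19 of the 35 pairs the index range was above 2 in both regions, in 23 the order of the indexes was the same in FCx and HP, and in 30 the same index gave the highest star share. In HP the star share was highest with index 3 in 10, with index 7 in 10 and with index 11 in 15 pairs, and in FCx in 8, 11 and 16. In 8 pairs the more abundant arm changed with the index in both regions.

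Across these 35 pairs, the log2 arm ratios of FCx and HP had Pearson correlations of 0.94, 0.94 and 0.97 within indexes 3, 7 and 11. Between different indexes of the same RNA pool, the correlations were 0.66 to 0.81 in FCx and 0.76 to 0.85 in HP. The points are pairs, not independent replicates, and libraries with the same index share the adaptor.

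In edgeR's quasi-likelihood test with a term for arm and index (Benjamini-Hochberg over 103 pairs of arms), the arm ratio differed between the indexes in 40 of the 69 star pairs. The background was the same kind of call in 63.1% of all pairs tested, and in 25 of the 34 pairs named -5p and -3p. miR-28*, miR-674* and miR-872* had an adjusted p of 0.0017 each, and miR-218-2* and miR-9* 0.0024. Pairs such as miR-330* (adjusted p = 0.94) and miR-136* (0.35) were not called.

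**Figure D2:**
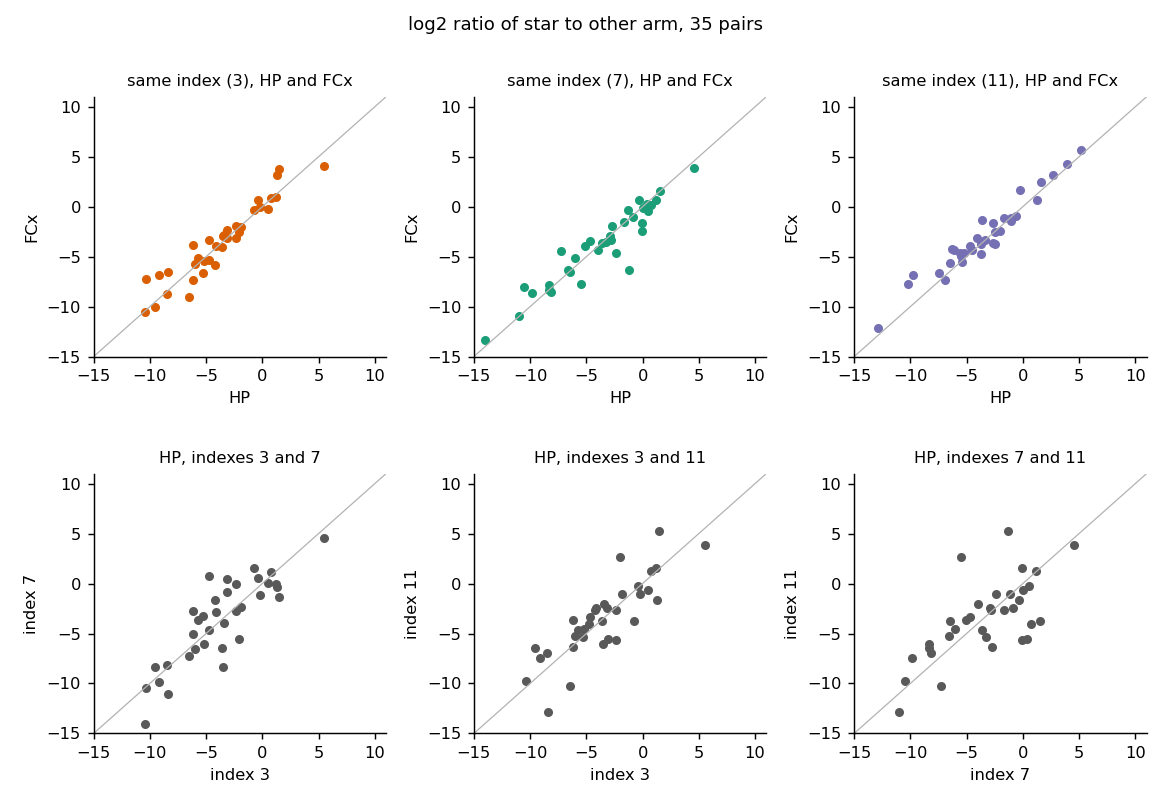
log2 ratio of star to other arm for 35 pairs (points), FCx against HP within the same index in the upper row and pairs of indexes within HP in the lower row, with the line of equality in grey. The points lie closer to the line between regions (r = 0.94, 0.94 and 0.97) than between indexes of the same HP RNA (0.76 to 0.85).

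let-7b* and let-7a*/let-7c-2* stood apart by lane. let-7 miRNAs are abundant in mature neurons, and their stars are the 3p arms. In the pooled lane of index 3, let-7b* had 338 counts in FCx and 752 in HP, 2874 and 644 CPM. The lane that sequenced the same libraries alone gave 10 and 69 counts, 36.5 and 33.9 CPM. Over the other 8 lanes its level was between 8.92 and 51.4 CPM. let-7a*/let-7c-2* had 57 and 221 counts in the pooled lanes of index 3 (189 CPM in HP) and 3 and 23 in the individual lanes (11.0 and 11.3 CPM), with at most 7.34 CPM elsewhere.

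The genome alignments of the same lanes held at most 5 alignments on the 3p side of the hairpins of these names in any lane, including the pooled lanes of index 3, where there were 2 and 1. In all 12 lanes together, let-7b* had 1514 counts but 7 alignments on its arm, and let-7a*/let-7c-2* had 334 counts and 15 alignments. What the 2 lanes did hold was 368 (FCx) and 826 (HP) alignments to let-7 hairpins whose first base was base 7 of the 5p arm, against 0 to 5 in each of the other 10 lanes. These were 0.857% and 0.151% of the let-7 alignments that began at base 1 or base 7. Whether they entered the counts of the 2 star names was not tested. Without both names the star share was 1.00% in place of 1.11% with index 3 in FCx and 0.829% in place of 0.862% in HP. The counts of these names are reported as suspect, and the index differences called for them (adjusted p = 0.0025 for let-7b* and 0.0017 for let-7a*/let-7c-2* in the edgeR fit) include those lanes.

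**Figure D3:**
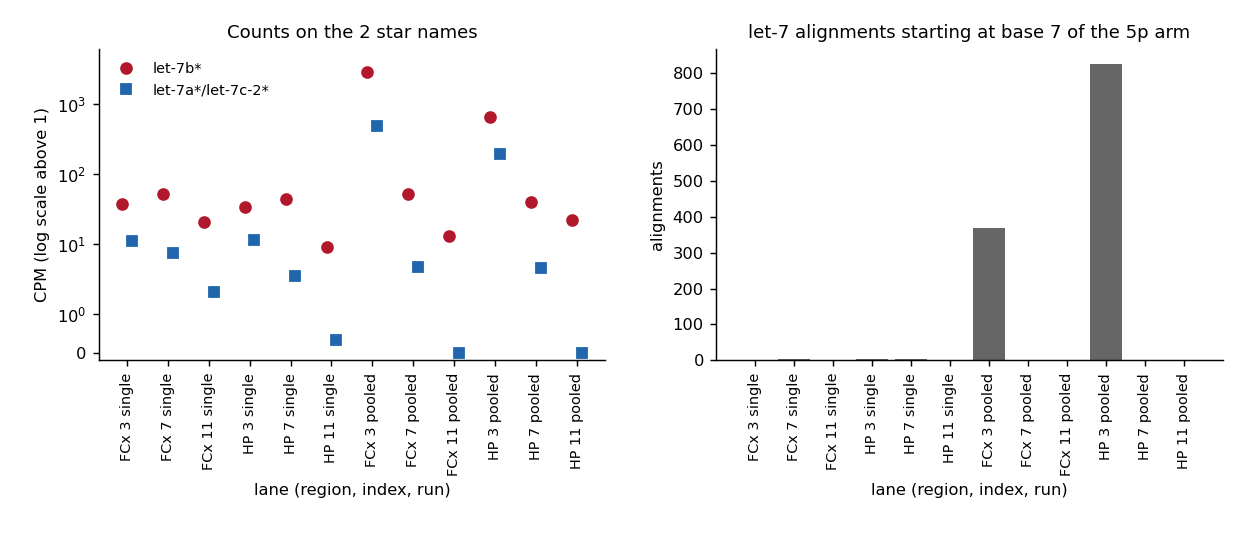
Left, CPM of let-7b* (circles) and let-7a*/let-7c-2* (squares) in each of the 12 lanes on an axis that is logarithmic above 1; right, alignments to let-7 hairpins that start at base 7 of the 5p arm. The pooled lanes of index 3 stand out on both sides, at 2874 and 644 CPM of let-7b* and at 368 and 826 alignments.

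Genome alignments served as a second readout of the other pairs. Of 57 stars with at least 10 counts and a located hairpin, 11 had fewer than 0.8 alignments on the named arm per count and 3 had more than the inverse of 0.8, while 43 lay between, with a median of 0.952. Besides the let-7 names above, let-7f* (1 alignment for 19 counts) and miR-101a* (1 for 12) were hardly seen at their arm. The star was the higher arm in all 3 libraries by alignments in 6 of 52 pairs in FCx and 6 of 58 in HP. miR-140* (22228 against 31 alignments), miR-136* (5652 against 227), miR-330* (5404 against 2429), miR-322* (602 against 19) and, in HP, miR-193* kept their order.

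By alignments and by counts, the star was higher in the same number of libraries in 50 of 52 pairs in FCx and 54 of 58 in HP. The exceptions were miR-431* and miR-872* in FCx, and miR-17*, miR-22*, miR-431* and miR-485* in HP. miR-431*, a member of the imprinted cluster, differed in both regions. The count files gave 571 counts to miR-431* and 588 to its other arm, with the star higher in none of the FCx libraries and 2 of the HP libraries. The alignments gave 936 to the star arm and 25 to the other, with the star higher in all 6 libraries. With indexes 3 and 7, 52.4% to 64.1% of its star alignments began 2 bases upstream of the annotated start, and with index 11 4% (FCx) and 18% (HP). The cause of the difference was not tested, so the arm split of miR-431 is uncertain. For miR-872, 926 alignments fell on the star arm and 187 on the other (945 and 414 counts), and the star was higher in all 3 FCx libraries by alignments and in 2 by counts.

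The first base of a strand fixes its seed, and stars were less uniform in it. Among arms with at least 50 alignments, with an other arm shared by several stars counted once, the commonest first base was the annotated one in 29 of 41 stars and in 58 of 60 other arms (let-7c alignments enter 2 of these, through a joined name), and the median share at the annotated base was 79.9% and 98%. For the 3 most abundant star-dominant pairs, a start 1 base downstream of the annotated one, which moves the seed by 1 base, held 51.8% (miR-140*), 51.8% (miR-136*) and 51.4% (miR-330*) of the alignments pooled over the libraries, where deep libraries weigh most. The pooled share 1 base downstream was 64.7% for miR-9*, and in its HP library of index 7 the annotated start was the commoner one (54.6% against 43.8%). miR-485* began 3 bases downstream (47.5%) and miR-382* 2 bases upstream (97.4%) most often.

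The start of miR-140* varied little over the libraries, with 43.2% to 49.9% at the annotated base and 48.2% to 53.0% 1 base downstream. That of miR-136* followed the index, with 65.5%, 27.4% and 42.2% at the annotated base in FCx and 53.6%, 27.8% and 48.8% in HP. With index 7, 62.8% of miR-136* alignments began 1 base downstream in either region, compared with 26.1% to 41.0% in the other 4 libraries, where the annotated start was the commoner one. miR-330* was at 47.4%, 50.2% and 24.6% in FCx and 45.9%, 51.8% and 27.9% in HP, lowest with index 11 in both regions. miR-382* began 2 bases upstream in 88% to 98% of alignments in all 6 libraries.

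**Figure D4:**
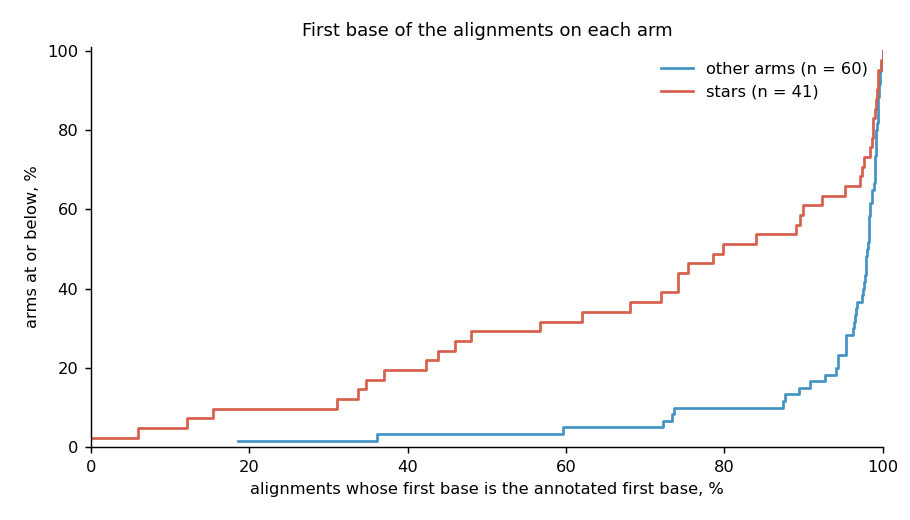
Cumulative share of arms (y axis) by the percentage of their alignments whose first base is the annotated one (x axis), for 41 stars and 60 other arms with at least 50 alignments over all libraries. The curve of the stars lies to the left, with a median of 79.9% against 98%.

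The second question was which stars differed between FCx and HP. Without a term for the index, edgeR's quasi-likelihood test called 0 of 92 stars at an adjusted p under 0.05, where the background was 0.464% of all names tested (2 names). At an unadjusted p under 0.05 it gave 5 stars, against a background of 3.94%, all of them higher in FCx. DESeq2 called 3 stars (let-7d*, miR-200a* and miR-200b*) against 2.78% of all names. With the index as a replicate block, 12 of 92 stars were called against 17.9% of all names, 5 higher in FCx (background 5.1%) and 7 higher in HP (background 12.8%). Whether stars were called at another rate than other names was not tested.

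The split by direction depended on the scaling. TMM placed the median of all tested names at -0.38 log2 units (FCx minus HP) in the blocked fit, and scaling by library totals at -0.01, where 10 stars were called (background 13% of all names), 6 higher in FCx (background 8.35%) and 4 in HP (background 4.64%). The turn in direction was thus shared with all names. miR-30e*, miR-136* and miR-431* were no longer called (adjusted p = 0.30, 0.55 and 0.094), and let-7b* was called in addition, one of the suspect names. Fold changes below are TMM values without the block unless said otherwise. The SE of an edgeR difference is its size over the square root of the F value of the test. Its variance is shared in part among names or pairs, so it is not the spread of a single name over the indexes.

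let-7d* was called between the regions with the block, and its other arm was not. It had 57, 180 and 92 counts in FCx (146, 123 and 141 CPM) and 44 (index 3) and 61 (index 11) in HP, where its levels were 13.7, 20.6 and 15.0 CPM, so that every FCx library lay above every HP library. The log2 difference was 2.65 ± 0.80 (SE), with an adjusted p of 0.30 without the block in edgeR and 4.9e-16 with it. let-7d itself had a difference of -0.09 ± 0.63 (adjusted p = 0.99) and, with the block, -0.21 ± 0.31 (adjusted p = 0.74). Of the pair, let-7d* took 0.651%, 0.380% and 0.894% in the FCx libraries, compared with 0.0761%, 0.0687% and 0.111% for HP. In the genome alignments the let-7d* arm held 522 alignments for 536 counts, of which 92.3% began at the annotated base.

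The stars of the miR-200 and miR-183 hairpins, known from epithelial and sensory cells, were also expressed on a higher level in FCx, but together with their other arms. miR-200b* had 4, 117 and 14 counts in FCx (10.2, 80.0 and 21.5 CPM) and 2, 8 and 0 in HP (0.624, 1.61 and 0 CPM). Its log2 difference was 5.50 ± 1.44 (adjusted p = 0.16 without the block in edgeR, 1.4e-20 with it), and that of miR-200b 4.47 ± 1.04 (adjusted p = 0.12, 4.1e-39 with the block). miR-200a* had 3, 16 and 9 counts in FCx and 1, 4 and 0 in HP, a log2 difference of 4.42 ± 1.16 (adjusted p = 0.16, 7.0e-06 with the block) beside 5.71 ± 1.36 for miR-200a. With each library left out in turn, the differences without the block ran from 4.38 to 6.68 for miR-200b* and from 4.30 to 5.58 for miR-200a*. Neither was called with the block once FCx index 7 was left out (adjusted p = 0.087 and 0.11 in edgeR).

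miR-183* was found with 7 counts in FCx (1, 5 and 1 with indexes 3, 7 and 11) and none in HP. Its FCx level was 11.4-fold what 3 counts over the HP libraries make. That figure leaves out the counting error of the 7 FCx counts, so it is not a lower bound. This star was called with the block (adjusted p = 0.032) and is named after its value was seen, like miR-425* and miR-431* below. Whether other cell types contributed to these hairpins in the FCx pool was not tested, and with 1 pool per region the dissection and the region cannot be told apart. Fewer cells of a type and less RNA per cell also cannot be told apart in bulk tissue.

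miR-135a* was called higher in FCx with the block. It had 4, 27 and 2 counts in FCx (10.2, 18.5 and 3.07 CPM) and 3, 13 and 1 in HP (0.936, 2.62 and 0.247 CPM), a log2 difference of 2.85 ± 1.11 (adjusted p = 0.74 without the block in edgeR, 9.0e-04 with it). With a library left out it ran from 2.12 to 3.91 without the block, and the blocked call was lost without FCx index 7 or HP index 7 (adjusted p = 0.25 and 0.16 in edgeR). Its other arm went the opposite way, with 9, 10 and 0 counts in FCx (23, 6.84 and 0 CPM) and 77, 55 and 73 in HP (24, 11.1 and 18 CPM), nearly level with index 3. The log2 difference of miR-135a was -1.51 ± 1.16 (adjusted p = 0.99) without the block in edgeR and -1.40 ± 0.45 (adjusted p = 0.014) with it. The row of miR-135a covers 2 hairpins and that of the star 1.

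**Figure D5:**
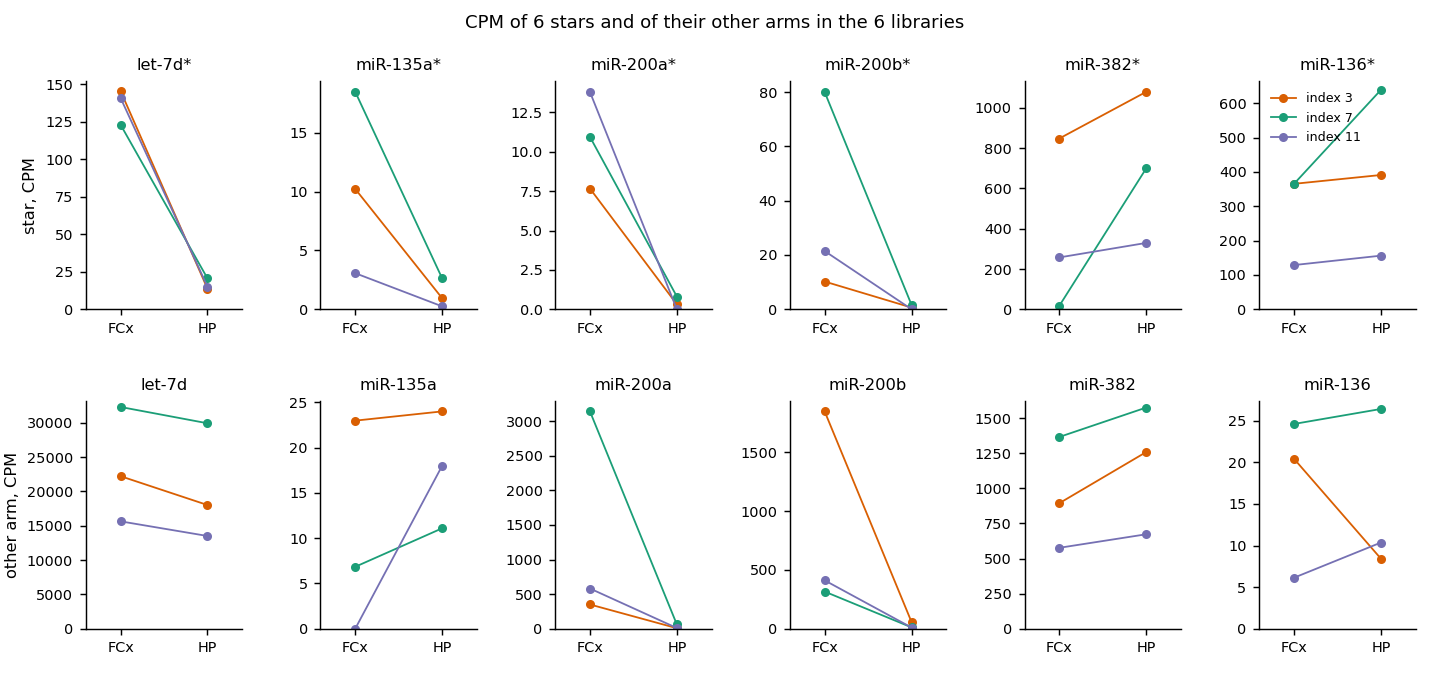
CPM of 6 stars (upper row) and of their other arms (lower row) in FCx and HP, with lines joining the libraries of the same index. let-7d*, miR-135a*, miR-200a* and miR-200b* fall from FCx to HP with every index, the other arms of the miR-200 stars fall with them, and miR-382* differs mainly with index 7 (17.1 against 700 CPM).

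The stars called higher in HP with the block were miR-382*, miR-376b*, miR-193*, miR-425*, miR-30e*, miR-431* and miR-136*. DESeq2 with the same block called 0 stars higher in HP, as did edgeR with the block when HP index 3, HP index 7 or FCx index 7 was left out. Over all names tested, 14 were called higher in HP in that DESeq2 fit. In those edgeR fits they were 4, 25 and 17, against 55 with all libraries. Fewer calls in HP were thus shared with all names, and whether stars lost them at another rate was not tested. miR-382* had 332, 25 and 168 counts in FCx (848, 17.1 and 257 CPM) and 3463, 3469 and 1336 in HP (1080, 700 and 330 CPM). Its log2 difference was -1.56 ± 1.03 (adjusted p = 0.99) without the block and -2.16 ± 0.33 (2.5e-09) with it, in edgeR. The latter SE does not reflect how unlike the indexes were, since the CPM differed mainly with index 7. Without the FCx library of index 7, the blocked difference of miR-382* was -0.75 (adjusted p = 0.10), and let-7d* was then the one star called. In that library miR-382* was 1.24% of its pair, against 30.8% to 48.7% in the other 5, and miR-30a* and miR-30e* also had their lowest shares there (3.74% and 15.2%).

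miR-376b* had 3, 22 and 5 counts in FCx and 42, 347 and 22 in HP, and its level was higher in HP with 2 of 3 indexes. The blocked log2 difference was -1.54 ± 0.43 (adjusted p = 0.0043 in edgeR), beside -1.06 ± 0.29 for miR-376b (0.0032). Without the HP library of index 7 the difference of miR-376b* was 0.00 without the block and -0.50 with it. miR-376a* had 2, 1 and 3 counts in FCx and 20, 3 and 67 in HP and was not called (adjusted p = 0.99, 0.089 with the block). miR-488*, from a hairpin enriched in brain, was found with 3, 3 and 8 counts in HP and none in FCx. Its HP level of 1.15 CPM over the region was below the 1.20 CPM that 3 counts make in FCx, so a difference was not detectable at this depth.

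Without any fit, 6 of 92 stars had all FCx libraries above all HP libraries (background 5.57% of all names). The reverse order held for 2 (background 3.48%), miR-488* and miR-31*, which were at 0 in FCx and had HP levels below what 3 counts make there, so that it carries no information on the region. The 6 were let-7d*, miR-135a*, miR-200a*, miR-200b*, miR-183* and miR-133a*, the last with 7 counts in all.

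The third question was whether the balance of the arms itself differed between the regions. In edgeR, with 69 star pairs among 103 pairs of arms, none was called without the block (background 0% of all pairs). At an unadjusted p under 0.05 there were 2, let-7d* and miR-135a*, against 1.94% of all pairs, and limma on the log2 ratios called none, with 2 at an unadjusted p under 0.05 (background 1.94%). With index by arm terms as the replicate block, let-7d* was called, the 1 pair in 103 (background 0.971%), and 6 star pairs had an unadjusted p under 0.05 (background 7.77%).

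The log2 ratio of let-7d* to let-7d was higher in FCx by 3.10, 2.47 and 3.01 with indexes 3, 7 and 11. The difference fitted in edgeR was 2.86 ± 0.90 (SE, adjusted p = 0.99) without the block and 2.85 ± 0.32 (adjusted p = 0.019) with it. limma with the block called no pair, and 10 star pairs had an unadjusted p under 0.05 (background 12.6%). For miR-135a* the ratio was higher in FCx by 3.39, 3.43 and 7.94, the last against 0 counts of miR-135a, with an adjusted p of 0.22 in the blocked edgeR fit. miR-7a*, whose hairpins are known from neurons and endocrine cells, had shares of 6.25%, 5.93% and 27.3% in FCx and 1.35%, 2.83% and 7.43% in HP, higher in FCx within each index (adjusted p = 0.22 with the block). In level, miR-7a* did not differ with the block (-0.36 ± 0.43, adjusted p = 0.67 in edgeR). miR-7a was called higher in HP with it (-2.26 ± 0.30, adjusted p = 7.4e-12) and not without it (0.74). miR-138* was at 0.707%, 0.214% and 0.907% in FCx and 0.151%, 0.103% and 0.563% in HP (adjusted p = 0.56 with the block). The rows of miR-7a and miR-138 each cover 2 hairpins and those of their stars 1.

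In the opposite direction, the smallest p-values of star pairs without the block in edgeR belonged to miR-488*, miR-29b*, miR-193* and miR-378*. These had 0, 2, 11 and 1 star counts in the whole of FCx. None was called, and their FCx ratios rest on too few counts for a fold. With the block in edgeR, the smallest were those of miR-376a* (unadjusted p = 0.065), miR-488* (0.086), miR-30a* (0.11) and miR-299* (0.11). None of these was called either (adjusted p = 0.56 each). For the 4 pairs with the star higher in all 6 libraries, the log2 ratio difference between FCx and HP with the block was 0.32 ± 0.54 (miR-140), -0.60 ± 0.47 (miR-136), -0.24 ± 0.58 (miR-322) and -0.31 ± 0.34 (miR-330). Their adjusted p-values in edgeR were 0.88, 0.66, 0.93 and 0.71.

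By family, the 7 let-7 stars were all detected and all rarer than their other arms in every library judged, with a median share of 0.0201% in FCx and 0.00711% in HP, and 1 of 7 (let-7d*) was called with the block, against 17.9% of all names. Their median log2 difference was 0.68, beside -0.37 for all names tested. The 7 include the suspect let-7b* and let-7a*/let-7c-2*, and let-7f* and let-7c-1*, which had 1 and 0 alignments on their arm. The 5 miR-30 stars had median shares of 8.33% in FCx and 9.18% in HP, both those of miR-30b*, which was found in FCx with index 7 alone (6 counts against 18). Without index 7 the medians were 6.53% and 5.81%. The 5 held 7.52% to 23.9% of all star counts in a library. miR-30e* took 66.5%, 15.2% and 85.2% of its pair in FCx and 69.8%, 49.0% and 75.2% in HP. The 3 miR-29 stars had median shares of 0.124% and 0.523% and a median log2 difference of -0.05. None of them was called without the block or with it (background 0.464% and 17.9% of all names).

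Of 15 stars fixed for the imprinted cluster on chromosome 12, 13 were listed. They held 18% to 21.4% of star counts in FCx and 25.3% to 29.6% in HP. Their summed levels overlapped between the regions. With indexes 3, 7 and 11 they were 2154, 874 and 1393 CPM in FCx and 2178, 2105 and 1338 CPM in HP. Their median share of the pair was 13.6% and 17% over 12 pairs judged in both regions. With the block, 4 were called, all higher in HP (miR-136*, miR-376b*, miR-382* and miR-431*), where 12.8% of all names were called higher in HP. Without it none was called (background 0.464% of all names). With library totals miR-136* and miR-431* were lost (adjusted p = 0.55 and 0.094 in edgeR), and none of the 4 was called by DESeq2 with the block or by edgeR without FCx index 7, HP index 3 or HP index 7. With library totals, 4.64% of all names were called higher in HP. Over all names, calls higher in HP fell from 55 in the blocked edgeR fit to 14 in DESeq2 with the block. Without FCx index 7, HP index 3 or HP index 7 they fell to 17, 4 and 25, so the loss was shared with all names. The median log2 difference without the block was -0.62, beside -0.37 for all names. The arm ratio of 5 of the 13 differed between the indexes, against 63.1% of all pairs.

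Of 8 stars fixed as brain-enriched, 7 were listed, all rarer than their other arm in every library, with median shares of 0.729% and 1.10%. Their median log2 difference was -0.29 (-0.08 with the star at 0 in FCx set to its bound). None was called between the regions without the block or with it (background 0.464% and 17.9% of all names). In arm ratio, 6 of 7 differed between the indexes, against 63.1% of all pairs. The shares of miR-9* were 11.7%, 0.448% and 4.84% in FCx and 7.96%, 0.305% and 1.46% in HP. Of the miR-17 and miR-15 cluster stars, 8 were listed and 7 tested, and of the miR-23, miR-27 and miR-24 group 4 were tested. No member of either group was called without the block or with it (background 0.464% and 17.9% of all names). The median log2 differences were 0.17 and -1.24 (-0.59 with the star at 0 in FCx set to its bound).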

How the data were processed

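Per the labels and the study's methods, small RNA libraries were sequenced on an Illumina Genome Analyzer II, reads were split by index, and aligned with Bowtie (version not given in the sources used here) to miRBase 11 and to NCBIM37 with up to 2 mismatches. The authors deposited a table of raw read counts per miRNA name and a list of genome alignments for each of 12 lanes. No normalization had been applied. Counts of the 2 runs of a library were summed. edgeR 4.0.16 (quasi-likelihood, TMM, names with at least 2 counts in a region) gave the main tests, with Benjamini-Hochberg adjustment over all names or pairs of arms. limma 3.58.1 and DESeq2 1.42.0 were alternatives. Arm ratios were fitted with 2 columns per library and a library term, the rarer arm having at least 10 counts. Alignments were given to an arm when they overlapped its mature sequence by at least 14 nt. The scripts were tested on simulated data.

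Replicate numbers stand for the index in both regions. With the mean of its region taken off each library, FCx and HP libraries with the same index deviated together (r = 0.77, 0.85 and 0.84 over all names tested). Between different indexes r was -0.25 to -0.60, which follows in part from taking off the mean and is no separate evidence. By the same-index values the number pairs the libraries, and the fit with the index as a block is quoted wherever a call depends on it. Stars named were let-7b* and let-7a*/let-7c-2*, every pair with the star higher in 3 libraries, the 10 of highest CPM, 4 in each direction of each fit, the 5 of largest index range, and fixed families. The members, lists and tests were chosen with earlier results of these data known.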

Additional observations from a re-analysis of the deposited data

Results flagged for a closer look

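Alignments to let-7 hairpins that begin at base 7 of the 5p arm were 368 in the FCx pooled lane of index 3 and 826 in the HP pooled lane of index 3, above the highest value of the 6 individual lanes (5). The source of these reads was not tested.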

How the results depend on the processing

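Of 417 values under other settings, 100 belong to the main comparisons, of which 74 stayed within the tolerance and 26 moved. For single stars 248 kept their direction and call, 68 became called and 1 changed sign. At 2 counts in every library, 43 (FCx) and 55 (HP) stars were detected. With counts summed over a region, the star exceeded the other arm in 7 pairs in FCx and 11 in HP, and leaving out each library in turn gave 4 to 7 and 5 to 8. Stars called between the regions were 12 with the replicate block, 10 with the block and library totals, 3 with DESeq2, 4 with DESeq2 and the block, and 1 with no filter, where 17.9%, 13%, 2.78%, 9.51% and 1.71% of all names were called. With the block they were 11 in the individual lanes, 7 in the pooled lanes and 12 without the pooled lanes of index 3 (16.3%, 11.9% and 16.7% of all names), settings added after seeing the data. Leaving out each library gave 0 to 1 without the block (0% to 1.69% of all names) and 1 to 11 with it (5.48% to 12.2%). The lowest number of stars with the block came without the FCx library of index 7, where 6.74% of all names were called. let-7d* was the star called there (2.90, adjusted p = 0.0079 in edgeR). Star pairs with a different arm ratio were 1 with the replicate block, and with it 2 in the individual lanes, 1 in the pooled lanes and 1 without the pooled lanes of index 3 (2.13%, 1.18% and 1% of all pairs). Leaving out a library gave 0 without the block. For miR-376b* the log2 difference lay between -2.0 and 0.0041 when a library was left out, the sign changing without HP replicate 2. The causes were not tested. Pairs whose arm ratio differed between the indexes were 33 to 37 under the alternatives run, with other numbers of pairs tested: 37 of 92 (45.5% of all pairs) at 2 counts of the rarer arm and 35 of 50 (73.8%) at 50. The smaller FCx libraries limit rare stars, since 3 counts there stand for 2.05 to 7.66 CPM against 0.605 to 0.936 in HP.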

Other observations

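Of 82 hairpins located in NCBIM37 that hold a RefSeq sequence of a listed star, 32 lay in an intron, 15 over an exon and 35 outside the annotated genes other than small RNAs. For 28 the overlapping gene was protein coding and on the same strand.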
